A study of Mus musculus with 18 samples.

Results

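The 48 genes that encode subunits and dedicated regulators of the proteasome were examined in livers and liver tumors of mice. They were taken as every gene of the table, out of 28442, whose symbol begins with Psm, a letter from a to g and a number, with nothing after it. Of these, 46 were high enough to be compared between groups, and the other 2, Psma8 and Psmb11, are subunits known from testis and thymus. The samples were 6 non-tumoral livers, each from a mouse without tumors, and 12 advanced tumors, 18 samples from 17 mice, since tumors 11 and 12 came from 1 mouse.

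Livers and tumors alike came from male F1 C57:129Sv mice of the genotype Alb-R26Met. In these mice Cre under the Alb promoter, which is active in hepatocytes, removes a stop cassette and lets a mouse-human chimeric Met transgene at the Rosa26 locus be expressed, so the livers are not wild type. The median age was 56.5 weeks for the livers (52 to 71) and 65 weeks for the tumors (49 to 72). A tag in the sample names, E19 (2 livers, 7 tumors) or E20 (4 livers, 5 tumors), parts the samples, and what the tags stand for is not given in the sources used here. The 6 hepatocyte marker genes summed to scaled values of 37653 to 49981 in livers and 35367 to 73499 in tumors. One by one they were split, with 3 above and 3 below 0 in log2 fold change of tumors against livers (-1.88 to 0.91).

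The proteasome degrades proteins that carry ubiquitin chains. Its 20S core is a barrel of alpha rings and beta rings, and the beta subunits encoded by Psmb5, Psmb6 and Psmb7 hold the standard active sites. Interferon-gamma induces 3 other active subunits, encoded by Psmb8, Psmb9 and Psmb10, which take their places in the immunoproteasome and change the peptides made for class I antigen presentation. The 19S regulator, with a ring of ATPases (Psmc genes) and a lid and base of non-ATPases (Psmd genes), binds, unfolds and feeds in the substrates, and chaperones assemble both parts.

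Values are TPM, a share of all transcripts corrected for gene length, as deposited in whole numbers, divided by a scaling factor per sample, and are called scaled values below. Totals were 835144 to 884597 per liver and 845356 to 907513 per tumor, and the reads behind a value are unknown. Tumor 2 stood apart from the other samples. A single gene, Siglece, took 82.9% of its total against 17.9 to 53.4% in the other 17 samples, and 8718 genes were above 0 there against 11508 or more elsewhere. Its scaling factor was 0.195 against 0.790 to 1.42, so that 1 TPM in tumor 2 became a scaled value of 5.14. Of the 48 proteasome genes, 47 were listed at 5 TPM or less in tumor 2, so its values are coarse, and the main results are also given without it.

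Between 12 tumors and 6 livers, no proteasome gene passed the test in either direction (0 of 46, limma with Benjamini-Hochberg adjustment over all 11708 genes tested, threshold 0.05). Of all genes tested, 9.77% were called higher and 9.28% lower in tumors. Only Psmb9 and Psmd8 had an unadjusted p under 0.05 among the 46. The median log2 fold change was -0.09 over the proteasome genes, with 16 above 0 and 30 below, and -0.06 over all genes. Tumor 2 was the lowest of the 12 tumors in 37 of the 46 genes and lay below every liver in 40 of them.

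Without tumor 2, 4 of the 46 genes rose in tumors and 0 fell, where 14.8% of 12220 genes were called higher and 11.4% lower. These were Psmd8, Psmb9, Psmd10 and Psmd14, and 10 of the 46 had an unadjusted p under 0.05. The share of proteasome genes called was thus below that of the table in both comparisons. The median log2 fold change without tumor 2 was 0.08 over the proteasome genes and -0.01 over all genes. In none of the 46 did the scaled values of all tumors lie above or all below those of the livers, with or without tumor 2. Among the 11708 genes, 2.18% lay wholly above and 0.982% wholly below with tumor 2, and 3.55% and 1.26% without it.

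**Figure D1:**
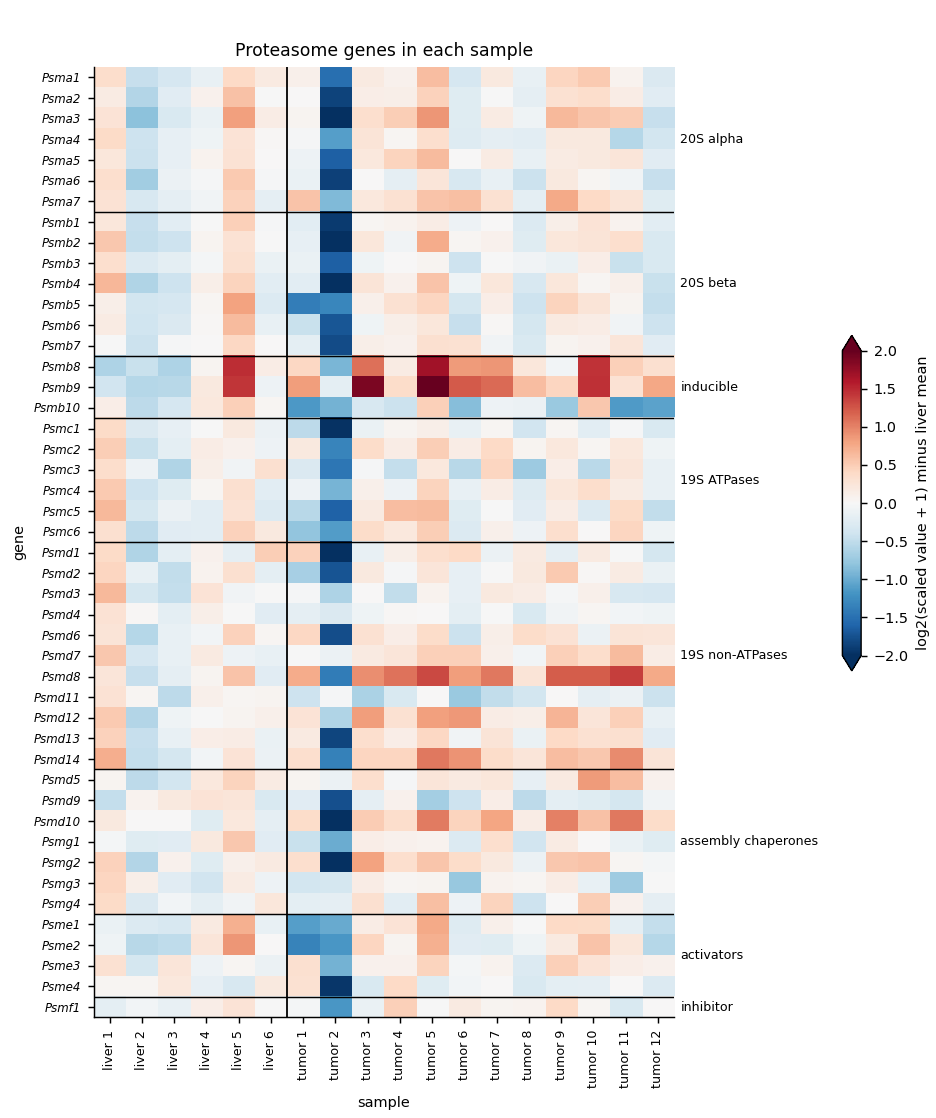
Each cell is the log2(scaled value + 1) of a proteasome gene (rows, grouped by role) in a sample (columns, 6 livers left of the line and 12 tumors right of it), minus the mean of the 6 livers, with colors ending at -2 and 2. Tumor 2 is blue in most rows, Psmd8 is red in the other 11 tumors, palest in tumor 8, and Psmb8 and Psmb9 are darkest in tumors 3, 5 and 10 and in liver 5.

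Genes of the 20S alpha ring, whose subunits gate the entry to the barrel, differed little between groups. Of the 7, none passed the test, with log2 fold changes from -0.26 to 0.22 and a median of -0.01 (0.15 without tumor 2). Median scaled values ran from 18.6 (Psma5) to 54.6 (Psma3) in livers and from 20.4 to 64.0 for the same genes in tumors. The testis subunit gene Psma8 was at 0 to 0.94 in livers, at 7.6 in tumor 3 and at 0 in the other 11 tumors, and the thymus subunit gene Psmb11 was at 0 in all 18 samples.

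The 7 standard beta ring genes were below 0 in log2 fold change without exception, yet none passed the test, and their median moved from -0.17 to 0.01 without tumor 2. Psmb5, whose product carries the chymotrypsin-like site, lay at 40.4 to 92.7 in livers (median 48.9) and at 19.6 to 71.6 in tumors (median 55.4). The groups overlapped, with 4 tumors below every liver and liver 5 above every other sample. Its log2 fold change was -0.18 ± 0.27 (SE; limma, adjusted p = 0.705).

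Psmb6, with the caspase-like site, was at 65.7 to 135 in livers (median 83.3) and 25.7 to 101 in tumors (median 81.8), with a log2 fold change of -0.24 ± 0.24 (SE; limma, adjusted p = 0.540). Psmb7, with the trypsin-like site, was at 41.3 to 74.8 in livers (median 55.9) and 15.4 to 69.6 in tumors (median 58.6), with a log2 fold change of -0.11 ± 0.24 (SE; limma, adjusted p = 0.801). For both genes the groups overlapped broadly, and tumor 2 gave the lowest value.

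**Figure D2:**
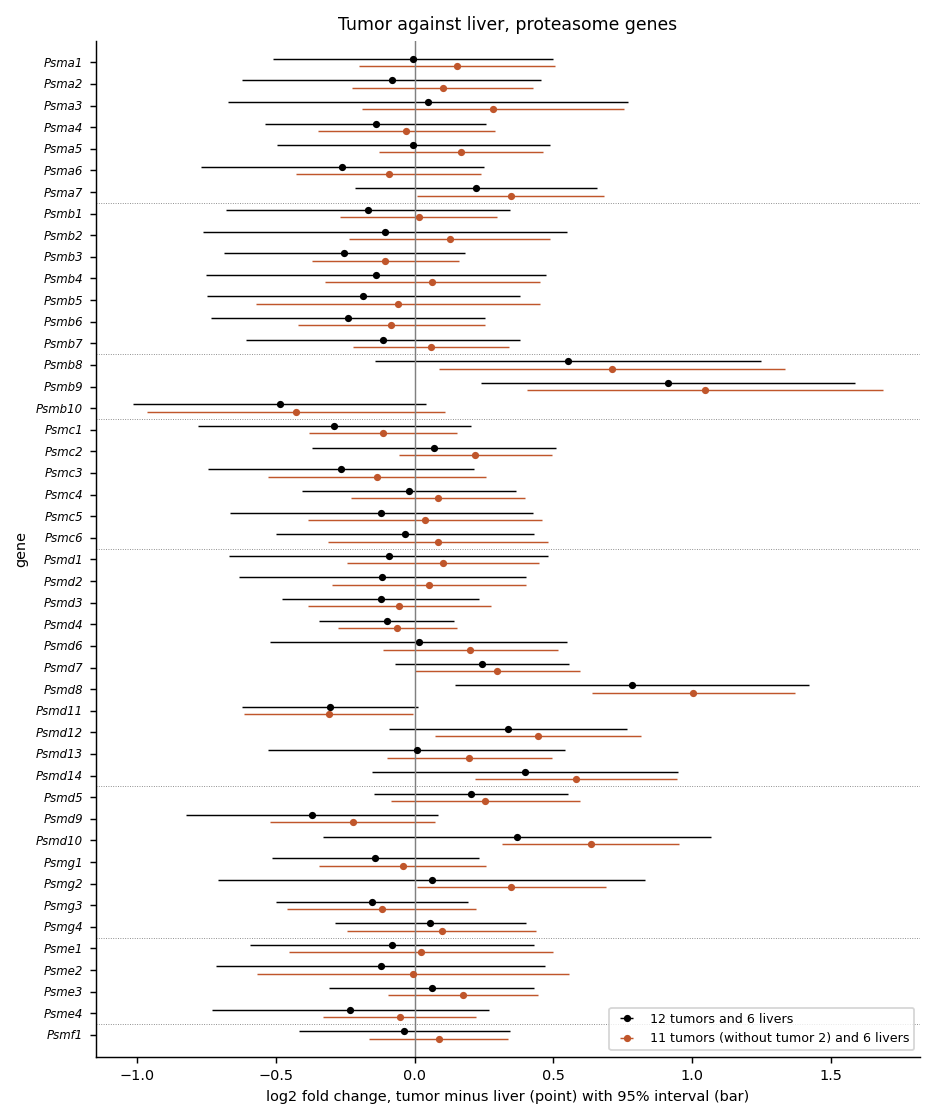
Points are log2 fold changes of tumors against livers for the 46 proteasome genes compared, and bars are 95% intervals, for all 18 samples (black) and without tumor 2 (orange). With 18 samples only the intervals of Psmb9 and Psmd8 exclude 0, at log2 fold changes of 0.91 and 0.78, and without tumor 2 most points shift to the right.

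Of the 3 inducible subunits, Psmb8 and Psmb9 were above 0 and Psmb10 below 0 in log2 fold change, and none passed the test with 18 samples. Psmb9 lies on chromosome 17 from 34182030 to 34187330 and Psmb8 from 34198195 to 34201454 (GRCm38.p6, RefSeq), with the peptide transporter gene Tap1 between them. Psmb9 was at 3.8, 3.8, 4.4, 5.5, 7.0 and 17.9 in the 6 livers, the last in liver 5. In tumors it ranged from 5.1 in tumor 2 through a median of 11.3 to 30.0 in tumor 5. Apart from liver 5, every liver was at or below 7.0, and 11 tumors were above that value. The log2 fold change was 0.91 ± 0.32 (SE; limma, adjusted p = 0.0528), and it was 1.05 without tumor 2 (adjusted p = 0.0165).

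Psmb8 was at 6.6 to 31.3 in livers (median 9.3) and at 5.1 to 36.4 in tumors (median 14.9). Liver 5 held the highest liver value and only tumor 5 exceeded it, so the groups overlapped. Its log2 fold change was 0.55 ± 0.33 (SE; limma, adjusted p = 0.279). Psmb10, on chromosome 8, was at 14.1 to 29.0 in livers (median 22.0) and at 8.7 to 30.5 in tumors (median 13.5). For this gene 6 tumors lay below every liver and tumors 5 and 10 above every liver, with a log2 fold change of -0.49 ± 0.25 (SE; limma, adjusted p = 0.200).

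Each inducible subunit replaces a given standard one, so the ratio of the pair within a sample was compared, with no scaling factor applied. It was taken as log2 of the deposited values, each with 1 added. Through the 1 added it still depends on the level of a sample, most where values are low, as in tumor 2. Each of the 3 differences in means was given a two-sided exact permutation test with all 18564 assignments. Psmb9 to Psmb6 was -3.66 ± 0.48 (SD, n = 6) in livers and -2.45 ± 0.65 (SD, n = 12) in tumors. All 12 tumors lay above the liver median and 9 above every liver. The difference was 1.22 (exact permutation p = 0.00151, adjusted over the 3 ratios 0.00452), and 1.14 without tumor 2 (exact permutation p = 0.00234).

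Psmb8 to Psmb5 was -2.22 ± 0.51 (SD, n = 6) in livers and -1.43 ± 0.62 (SD, n = 12) in tumors. The difference was 0.79 (exact permutation p = 0.0184, adjusted 0.0276), with 10 tumors above the liver median and 8 above every liver. It was 0.78 without tumor 2 (exact permutation p = 0.0255) and did not pass without liver 1 (0.63, exact permutation p = 0.0559). Psmb10 to Psmb7 did not pass (-1.39 ± 0.19, n = 6, against -1.76 ± 0.72, n = 12, exact permutation p = 0.244; without tumor 2, p = 0.0789). Tumors were spread more widely there, with 7 below every liver and 2 above.

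The differences in ratio were not alike in size within the tags. Among E20 samples (5 tumors and 4 livers), Psmb9 to Psmb6 differed by 1.70 and Psmb8 to Psmb5 by 1.25 (exact permutation p = 0.00794 for each, the smallest that 126 assignments allow). Tumor 2 is among them. Its Psmb9 to Psmb6 ratio, the highest of the tumors as computed with 1 added, rests on deposited values of 1 and 5 TPM. From the deposited values alone tumor 3, at 26 and 85 TPM, has a higher ratio. Without tumor 2 the differences were 1.54 and 1.29 (exact permutation p = 0.0286 for each, the smallest that 70 assignments allow). Among E19 samples (7 tumors and 2 livers) the differences were 0.55 (exact permutation p = 0.389) and 0.23 (exact permutation p = 0.694), so they did not hold within E19. The 2 livers there include liver 5, the liver with the highest ratio in both pairs. Whether the difference in ratio itself differs between tags was not tested. Gene by gene, no tumor-liver difference was found to depend on the tag by limma's interaction term with adjustment (0 of 11708 genes). At an unadjusted p under 0.05 there were 348, of which 1 was a proteasome gene. With only 2 livers in E19, and tumor 2 in E20, this test cannot show that the differences are alike in both tags.

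**Figure D3:**
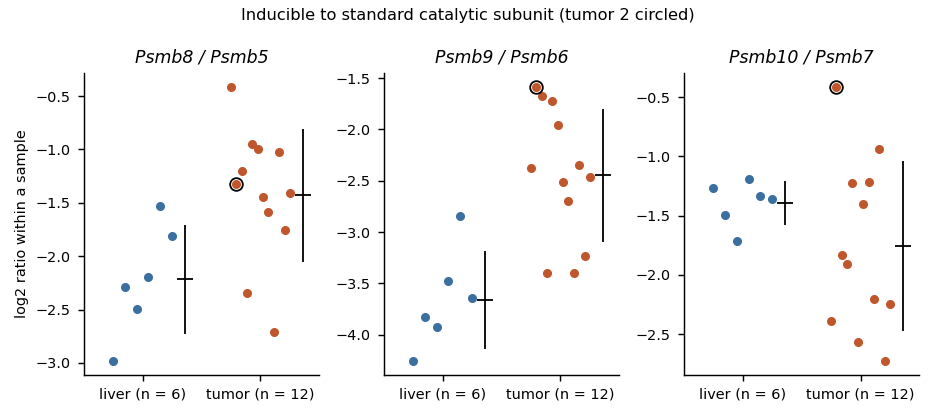
Points are the log2 ratio of an inducible to a standard catalytic subunit gene in each of 6 livers (blue) and 12 tumors (orange), with the mean and SD as a cross and bar, and tumor 2 circled. The mean ratio is higher in tumors by 0.79 for Psmb8 to Psmb5 and by 1.22 for Psmb9 to Psmb6, while tumors spread to both sides of the livers for Psmb10 to Psmb7.

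Immune cells express the inducible subunits at high levels, and in bulk tissue fewer cells of a type and less RNA per cell cannot be told apart. Summed scaled values of 5 leukocyte marker genes were 34.7 to 44.7 in livers and 13.8 to 74.0 in tumors (median 23.9), with 1 of the 5 genes lower and 0 higher in tumors by limma. Kupffer cell markers summed to 32.8 to 99.4 in livers and 2.5 to 63.3 in tumors (2 of 4 tested lower), and macrophage markers to 70.4 to 232 and 43.6 to 247 (0 of 6 called). The T lymphocyte markers summed to at most 2.83 in livers and 8.71 in tumors, B lymphocyte markers to at most 0.94 and 1.74, and natural killer cell markers to at most 2.23 and 4.01, and none of these genes was high enough to be tested. Liver 5 held the highest Kupffer and macrophage sums among livers. Tumors 5 and 10, with the highest leukocyte sums, 58.5 and 74.0, also held the highest Psmb8 values. For Psmb9 the highest values were in tumor 5 and in tumor 3 (24.8), whose leukocyte sum was 24.8. The part of immune cells in the values of Psmb8 and Psmb9 was not tested.

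Tap1 pumps the peptides made by the proteasome into the endoplasmic reticulum. It rose in tumors, from 3.7 to 7.8 in livers (median 4.4) to 5.0 to 18.98 in tumors (median 10.1), with 7 tumors above every liver. The log2 fold change was 1.03 ± 0.23 (SE; limma, adjusted p = 0.00360), and 1.01 without tumor 2 (adjusted p = 0.00329), but it did not pass without scaling (adjusted p = 0.0959) or among E19 samples alone (adjusted p = 0.224). It was the only one of 12 class I antigen processing genes called with 18 samples, where 9.77% of all genes were called higher. Without tumor 2, where 14.8% were called higher, B2m and Pdia3 were called as well. With 18 samples 11 of the 12 were above 0 in log2 fold change (median 0.21). Without tumor 2, 9 were above and 3 below 0 (median 0.20).

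Tap1 and Psmb9 are read in opposite directions from neighbouring start sites, and their windows overlap. The 250 bases before the RefSeq start of each (GRCm38.p6, 5′ to 3′) are shown because these neighbours had the highest fold changes of their lists, with Psmb8 nearby, and CCAAT boxes, searched as CCAAT on both strands, are in capitals. Psmb9 is at chr17:34187331-34187580 on the minus strand, Tap1 at chr17:34187306-34187555 and Psmb8 at chr17:34197945-34198194, both on the plus strand.
Psmb9: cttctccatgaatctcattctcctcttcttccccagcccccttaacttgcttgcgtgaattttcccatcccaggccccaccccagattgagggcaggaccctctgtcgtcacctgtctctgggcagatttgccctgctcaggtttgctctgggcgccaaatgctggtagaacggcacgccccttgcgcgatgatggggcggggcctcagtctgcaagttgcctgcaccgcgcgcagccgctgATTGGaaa
Tap1: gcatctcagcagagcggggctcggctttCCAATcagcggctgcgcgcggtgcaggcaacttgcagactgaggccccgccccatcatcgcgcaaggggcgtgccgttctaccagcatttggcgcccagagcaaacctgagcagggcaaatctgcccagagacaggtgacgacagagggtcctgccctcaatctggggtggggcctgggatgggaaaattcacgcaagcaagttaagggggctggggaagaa
Psmb8: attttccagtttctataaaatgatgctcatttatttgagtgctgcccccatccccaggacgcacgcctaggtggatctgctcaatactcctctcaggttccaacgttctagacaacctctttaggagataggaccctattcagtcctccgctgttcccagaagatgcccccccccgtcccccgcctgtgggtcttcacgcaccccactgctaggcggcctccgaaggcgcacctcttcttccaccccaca
The box near the start of Psmb9 lies in the stretch that both windows hold, and the Psmb8 window holds none. CCAAT was found in the windows of 37.5% of 27025 genes and of 35.0% of the 40 proteasome genes with an entry.

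The interferon regulatory factor box, searched on both strands, was in 3 of the 40 (7.50%, against 3.46% of all genes), namely Psmb3, Psmd4 and Psmd9. None of the 3 inducible subunit genes held its letters in this window. The core of the antioxidant response element, TGACNNNGC on both strands, which Nrf1 and Nrf2 bind, was in 5 of the 40 (12.5%, against 11.5% of all genes). These were Psmb5, Psmb6, Psmc6, Psmd9 and Psmd12. Windows of the pair of active-site genes are shown, with the element in capitals, Psmb5 at chr14:54617996-54618245 on the minus strand and Psmb6 at chr11:70525107-70525356 on the plus strand.
Psmb5: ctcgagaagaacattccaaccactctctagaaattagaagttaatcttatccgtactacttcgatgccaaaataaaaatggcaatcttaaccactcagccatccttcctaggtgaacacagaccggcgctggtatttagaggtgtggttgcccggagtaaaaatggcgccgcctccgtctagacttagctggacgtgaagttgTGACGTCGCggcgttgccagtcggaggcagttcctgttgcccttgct
Psmb6: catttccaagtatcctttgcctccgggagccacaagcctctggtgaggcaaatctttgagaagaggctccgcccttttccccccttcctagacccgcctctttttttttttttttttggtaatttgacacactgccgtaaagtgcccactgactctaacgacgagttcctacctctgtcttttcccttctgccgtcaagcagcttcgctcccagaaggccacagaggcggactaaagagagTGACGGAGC
Both copies read in the direction of the gene, and that of Psmb6 ends at the last base of the window.

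The 6 ATPase genes of the 19S base, which unfold substrates, gave no call, with log2 fold changes from -0.29 to 0.07 and a median of -0.08 (0.06 without tumor 2). Liver medians were 22.2 (Psmc1) to 44.3 (Psmc3). Across the 30 standard core and 19S genes other than Psmd8, the 95% intervals of the log2 fold change lay between -0.78 (Psmc1) and 0.95 (Psmd14). Without tumor 2 they lay between -0.61 (Psmd11) and 0.95 (Psmd14). Each interval holds for its own gene and not for all 30 at once. The interval of Psmd8, set aside after its values were seen, reached 1.42 with 18 samples and 1.37 without tumor 2.

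Among the 11 non-ATPase genes of the 19S regulator, 6 were above and 5 below 0, with a median log2 fold change of 0.01 (0.20 without tumor 2). Psmd8, singled out after its values were seen, encodes a lid subunit and lies on chromosome 7 from 29174187 to 29180673. It was at 40.4 to 83.8 in livers (median 53.7) and at 20.6 to 147 in tumors (median 113). Of the tumors, 10 were above every liver, tumor 8 lay among the livers at 66.8 and tumor 2 below them. The log2 fold change was 0.78 ± 0.31 (SE; limma, adjusted p = 0.0810), and without tumor 2 it was 1.01 ± 0.17 (SE; adjusted p = 0.000325).

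Psmd8 also stood apart from its own list within samples. As a description with no test, Psmd8 was 1.83 to 2.83 times the median TPM of the other 10 non-ATPase genes in livers (median 2.02) and 1.60 to 4.94 times in tumors (median 3.91). It was the highest of the 11 genes in 11 tumors and ranked 4 in tumor 2, and its rank was 1 to 3 in livers. Psmd11, a scaffold subunit of the lid with the highest liver median of the 11 (80.9), was at 61.8 in the median tumor (log2 fold change -0.31, limma, adjusted p = 0.180).

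**Figure D4:**
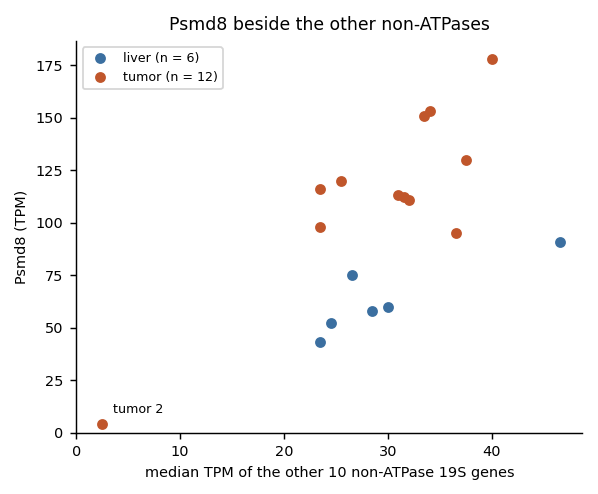
Each point is a sample, with the median TPM of the other 10 non-ATPase 19S genes on the x axis and the TPM of Psmd8 on the y axis, for 6 livers (blue) and 12 tumors (orange). In 11 tumors Psmd8 is at 2.60 to 4.94 times that median, against 1.83 to 2.83 times in livers, and tumor 2 sits near the origin.

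Psmd14, the deubiquitinase that frees the ubiquitin chain before degradation, was at 10.3 to 24.9 in livers (median 13.7) and at 5.1 to 31.6 in tumors (median 20.1). Liver 1 was above 9 of the tumors, so the groups overlapped. The log2 fold change was 0.40 ± 0.27 (SE; limma, adjusted p = 0.335), and 0.58 without tumor 2 (adjusted p = 0.0185). Psmd4, an ubiquitin receptor, was level, at 26.9 to 38.8 in livers (median 31.6) and 25.3 to 32.2 in tumors (median 29.8), with a log2 fold change of -0.10 ± 0.12 (SE; limma, adjusted p = 0.617).

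Assembly chaperones were low genes, with liver medians of 3.8 (Psmd10) to 21.7 (Psmd9), and none of the 7 passed the test with 18 samples, at log2 fold changes of -0.37 to 0.37. Psmd10, also called gankyrin and studied as an oncoprotein in liver cancer, was at 3.0 to 4.5 in livers (median 3.8). In tumors it was at 0 in tumor 2, at 4.2 in tumor 8 and at 5.0 to 8.9 in the other 10, all above every liver. As deposited, livers were at 3 to 6 TPM and these 10 tumors at 5 to 11 TPM, so the groups overlapped before scaling. The log2 fold change was 0.37 ± 0.34 (SE; limma, adjusted p = 0.501), and 0.63 ± 0.15 without tumor 2 (SE; adjusted p = 0.00456). A 0 in tumor 2 stands for any TPM that rounds to 0.

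Within the tags, the 4 genes called without tumor 2 passed or did not pass as follows, by limma on each tag alone. Among E19 samples, where 7.56% of genes were called higher and 5.36% lower, Psmd8 (0.91, adjusted p = 0.0166) and Psmd10 (0.82, adjusted p = 0.0462) passed, while Psmd14 (0.57, adjusted p = 0.123) and Psmb9 (0.34, adjusted p = 0.721) did not. Among E20 samples, where 3.49% were called higher and 1.18% lower, none of the 46 passed. Without tumor 2 the E20 samples, where 6.28% of genes were called higher and 1.47% lower, gave 3 calls among the 46, close to the share over the table. They were Psmb9 (1.32, adjusted p = 0.00371), Psmb8 (0.87, adjusted p = 0.0484) and Psmd8 (0.83, adjusted p = 0.0402). Psmd8 was thus the gene called within both tags once tumor 2 was left out, a choice made after seeing the data. With tumor 2 its log2 fold change among E20 samples was 0.40 (limma, adjusted p = 0.679). The 4 genes were picked from these same samples, so their calls within tags add no separate support. The 6 dividing cell markers, 4 of them at 0 in every liver, summed to 0 to 1.9 in livers and 5.0 to 26.1 in tumors. The 3 high enough to be tested were called higher in tumors. With livers this low, they could reach the filter only with the help of tumor values, so these calls add no separate support. The part of dividing cells in the values of the proteasome genes was not tested.

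**Figure D5:**
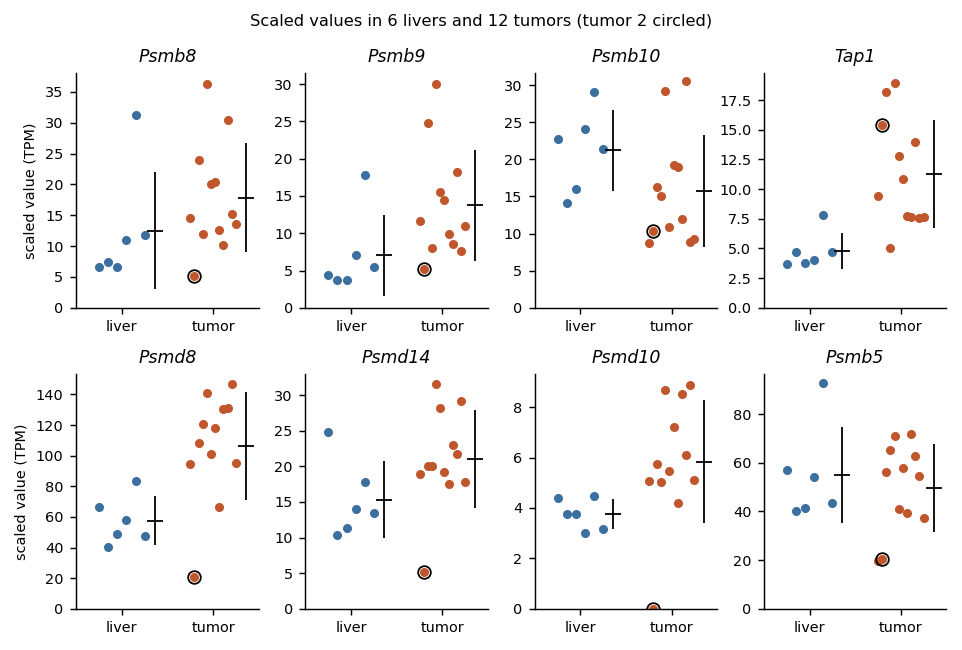
Points are scaled values (TPM) of 8 genes in 6 livers (blue) and 12 tumors (orange), with the mean and SD as a cross and bar, and tumor 2 circled. Liver 5 is the highest liver for Psmb8, Psmb9 and Psmb5, and tumor 2 is the lowest tumor for Psmb8, Psmb9, Psmd8, Psmd14 and Psmd10.

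Activators that open the core in place of the 19S regulator gave no call. Psme1 and Psme2, interferon-induced subunits of PA28, were at 41.6 to 86.0 and 31.9 to 88.2 in livers and at 24.0 to 89.4 and 18.2 to 78.3 in tumors, with log2 fold changes of -0.08 (limma, adjusted p = 0.863) and -0.12 (adjusted p = 0.824). Psme3, the nuclear PA28 gene, had a log2 fold change of 0.06 and Psme4, which encodes PA200, of -0.23 (limma, adjusted p = 0.859 and 0.565). Psmf1, an inhibitor of the core, had medians of 12.4 in livers and 12.9 in tumors (log2 fold change -0.04, limma, adjusted p = 0.920). For all 5 genes the groups overlapped.

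Among 48 other genes of the pathway, 3 rose and 3 fell in tumors, where 9.77% and 9.28% of all genes did. Without tumor 2, 6 rose and 3 fell, where 14.8% and 11.4% of all genes did. None of 10 proteasome partners passed, among them the maturation factor gene Pomp (-0.10, limma, adjusted p = 0.845) and the ubiquitin receptor gene Adrm1 (0.16, adjusted p = 0.600). None of 6 ubiquitin and E1 genes passed, and reads of the ubiquitin genes, which share repeats, may be split between them. Of 12 shuttle and p97 genes, 2 fell, among them Ddi2. Ddi2, a protease that processes Nrf1, was at 73.7 to 126 in livers (median 109) and at 40.9 to 94.2 in tumors (median 57.6), with 7 tumors below every liver and a log2 fold change of -0.71 ± 0.18 (SE; limma, adjusted p = 0.00925). Without tumor 2 it was -0.68 (adjusted p = 0.00978). Ddi2 passed in 31 of 39 alternatives, and among those it did not pass were values without scaling (limma, adjusted p = 0.193), shares of the total without Siglece (adjusted p = 0.0565) and each tag alone.

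The list of 8 genes around Nrf1 and Nrf2, factors that raise transcription of proteasome and antioxidant genes with small Maf proteins as partners, held the other calls. Mafg was at 49.8 to 93.9 in livers (median 73.4) and at 13.6 to 45.8 in tumors (median 25.8). Every tumor lay below every liver, with a log2 fold change of -1.38 ± 0.22 (SE; limma, adjusted p = 0.000175), and -1.36 without tumor 2. Mafk went the other way, from 3.2 to 5.1 in livers (median 3.8) to 6.0 to 10.9 in tumors (median 7.9). Every tumor lay above every liver, with a log2 fold change of 0.91 ± 0.14 (SE; limma, adjusted p = 0.000111), and the same 0.91 without tumor 2, although it did not pass without scaling (adjusted p = 0.111). Maff rose by 0.90 (limma, adjusted p = 0.0216), and by 0.91 without tumor 2 (adjusted p = 0.0220). It passed in 29 of 39 alternatives, and not without scaling (adjusted p = 0.195), in E19 (adjusted p = 0.125) or E20 alone (adjusted p = 0.231), or without liver 1 (adjusted p = 0.0547) or liver 5 (adjusted p = 0.0653), among others. Nfe2l1, which encodes Nrf1, was at 49.2 to 94.8 and 36.1 to 79.9 (log2 fold change -0.20, limma, adjusted p = 0.510). Nfe2l2, which encodes Nrf2, was at 12.1 to 23.4 in livers and 15.4 to 48.3 in tumors, with 7 tumors above every liver. It did not pass with 18 samples (log2 fold change 0.58, limma, adjusted p = 0.0516) and did without tumor 2 (0.67, adjusted p = 0.0115).

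Genes of 2 other large complexes were set beside the proteasome genes. None of 78 cytosolic ribosome genes and none of 8 cytosolic chaperonin genes passed with 18 samples (limma), and their median log2 fold changes were 0.03 and 0.04. Without tumor 2 again none passed, with medians of 0.17 and 0.21.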

How the data were processed

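Poly-A RNA of 6 livers and 12 tumors was sequenced paired end. The authors aligned reads to GRCm38 and obtained TPM from Salmon's output. Whole numbers, named raw counts by the study, were deposited, and are a score here. They were read as rounded TPM, since 882 of 900 values that the study also gives as TPM, over 50 genes, equal them after rounding. TPM do not keep depth, so no counting error is given. An extra separator in 8 lines was allowed for.

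A scaling factor for each sample, by which values were divided, came from the unweighted mean of M values after trimming (30% for M and 5% for A). Genes at 1 or more in at least 6 samples (3 for 1 tag alone) were kept. With 1 added as pseudocount, log2 values went into limma 3.58.1 (R 4.3.3), its variance trend on, and Benjamini-Hochberg adjustment covered all genes tested (threshold 0.05). Fold changes on this scale understate those of low genes. The fit was also run on simulated data. There livers and tumors alike were drawn from each gene's liver mean and SD, apart from set changes. That run therefore does not cover the spread of the tumors or a sample such as tumor 2. Ratios and tables used Python 3.11.15, numpy 2.4.6 and pandas 2.3.3, and figures matplotlib 3.10.9. Tumors 11 and 12, from 1 mouse, were fitted as 2 samples.

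Groups come from the labels, and ages from the study's list of samples. For 2 tumors, 3 and 10, the mouse number differed between labels and list, and their ages were matched by tumor number and tag. The genes, lists and tests were chosen with earlier results of these data known. Values were to be given for the catalytic subunits, activators, inhibitor, Psmd4, Psmd10, Psmd14, Psma8 and Psmb11, for any proteasome gene called, for Pomp, Adrm1 and Nfe2l1, and for the 3 genes called with the largest change of each pathway list. Of these, 1 gene is not reported here. Psmd8, Psmd11, Nfe2l2, B2m, Pdia3 and the promoters printed were chosen after their values were seen. Promoters came from RefSeq (GRCm38.p6) by Entrez identifier (40 of 48 genes). Of the lists, Paaf1 and Trac were not matched to a row of the table. Alternatives covered scaling, pseudocount, filter, weights, tag, age, the average of tumors 11 and 12, a replicate block and each sample left out, and 6 combinations without tumor 2 or within pairs were added after seeing the data.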

Additional observations from a re-analysis of the deposited data

Results flagged for a closer look

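In 6 livers, 3 of 49 values examined (46 proteasome genes and 3 ratios) had 1 liver far from the others, where about 2.45 are expected by chance at 1 in 20 groups. The gap to the nearest liver, as a share of the whole range, was 0.768 for Psmb9, 0.787 for Psmb8 and 0.680 for Psmb5, each above Dixon's 95% critical value for 6 samples. In each of these genes the liver apart was liver 5, at 17.9 for Psmb9, 31.3 for Psmb8 and 92.7 for Psmb5. Its Kupffer cell and macrophage markers were also the highest of the livers, at 99.4 and 232, and their part in these values was not tested. Without liver 5, the log2 fold change of Psmb9 was 1.20 (limma, adjusted p = 0.00952) and that of Psmb8 was 0.85 (adjusted p = 0.0671). Liver 5 was the highest liver for both genes, so leaving it out was bound to raise these differences. The rise therefore adds no separate support.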

How the results depend on the processing

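Over 39 alternatives, 0 proteasome genes were called lower. With 18 samples 0 were called higher, and 1, Psmb9, was with median of ratios, with shares of the total without Siglece, with a filter at 5, with age as covariate and with the replicate block. Sample quality weights gave 8, E19 alone 2, and samples left out in turn 0 to 4, the 4 without tumor 2 and 1, Psmb9, without liver 5, tumor 4 or tumor 11. Of all genes tested, 2332 of 11708 were called higher with quality weights, 861 of 11393 in E19 alone and 1808 of 12220 without tumor 2. After seeing the data, leaving out tumor 2 was combined with tag as covariate (4), median of ratios (4), no scaling (3), leaving out liver 1 (6) and E20 alone (3), and pairs 1 and 3 to 6 with the replicate block gave 2. In that order, 1813 of 12220, 1775 of 12220, 1446 of 13301, 1980 of 12171, 810 of 12891 and 734 of 11354 genes tested were called higher. Of the 46 genes, 31 changed sign of the fold change in at least 1 alternative, and 15 kept it.

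Over all genes, 2230 calls became 1341 without scaling, 4702 with quality weights, 1359 and 1212 for livers and tumors 1 to 6 with and without the replicate block, 1472 for E19, 541 for E20, 3699 without tumor 2 and liver 1, 1399 for pairs 1 and 3 to 6, 999 for E20 without tumor 2, and 1660 to 3207 with samples left out. Without scaling the median log2 fold change of all genes was -0.18 and that of the proteasome genes -0.25. Of all calls 51.3% were higher in tumors, and 62.3% with shares without Siglece.

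Psmb8 to Psmb5 ranged from 0.63 to 0.92 with samples left out, was 0.23 in E19 alone (exact permutation p = 0.694) and 1.01 with the replicate block (exact permutation p = 0.0625). Psmb9 to Psmb6 ranged from 1.10 to 1.38 and was 0.55 in E19 alone. Psmb10 to Psmb7 ranged from -0.49 to -0.27. For livers and tumors sharing a number, deviations from the group mean correlated at -0.10 to 0.42 (6 pairs, mean 0.18, against -0.04 over the other 30). The numbers were not taken to pair samples, since the livers came from mice without tumors. The replicate block rests on these numbers alone. The cause of each difference between alternatives was not tested. The study names a number of reads per sample, but the depth that each sample reached is unknown. Whole numbers limit low genes, most of all in tumor 2.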
